A study of Mus musculus with 2 samples.

Results

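The miR-302/miR-367 cluster on chromosome 3 and the miR-290 cluster on chromosome 7 are the main microRNA (miRNA) clusters of mouse pluripotent cells, and 9 of their genes were followed here in embryonic hindbrain. The 9 genes were taken by symbol, through their Ensembl identifiers, from the 1973 miRNA genes in the deposited tables. They were Mir302a, Mir302b, Mir302c, Mir302d and Mir367 of the miR-302/miR-367 cluster, and Mir291a, Mir293, Mir294 and Mir295 of the miR-290 cluster. Small RNA, with a size limit of 30 in the labels, was sequenced from whole hindbrain of healthy B6NCrl mouse embryos at embryonic day 12.5, both sexes pooled, with no genetic change or treatment named. The only group has 2 libraries, replicate 1 from 120 embryos and replicate 2 from 88 embryos, both under the same donor label. No other stage or tissue was analysed here, so the levels below are those of a single stage.

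MiRNAs are cut from hairpin precursors and repress messenger RNAs that pair with their seed, the bases 2 to 8 from the 5′ end. The miR-290 genes are switched on in the early cleavage embryo and are known from embryonic stem cells, where they lower inhibitors of the cell cycle. The miR-302/miR-367 genes follow around implantation and stay on longer, also in the early neuroepithelium, where loss of miR-302 in mice disturbs neural tube closure and neural differentiation. By embryonic day 12.5 the hindbrain holds dividing progenitors beside newly formed neurons.

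The mature sequences show why both clusters are treated together, since most of their 3′ arms carry the same seed. They are given 5′ to 3′ as listed by RefSeq for GRCm38.p6, with the seed in capitals, for the 8 members with an entry for the 3′ arm.
miR-302b-3p: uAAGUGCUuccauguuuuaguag
miR-302c-3p: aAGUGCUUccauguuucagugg
miR-302d-3p: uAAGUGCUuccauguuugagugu
miR-367-3p: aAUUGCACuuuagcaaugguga
miR-291a-3p: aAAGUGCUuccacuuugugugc
miR-293-3p: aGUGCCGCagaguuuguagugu
miR-294-3p: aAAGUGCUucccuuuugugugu
miR-295-3p: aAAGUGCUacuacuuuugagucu

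Of these, miR-302b-3p and miR-302d-3p from chromosome 3 and miR-291a-3p, miR-294-3p and miR-295-3p from chromosome 7 have the seed AAGUGCU. These 5 were the only ones with that seed among the 1738 mature entries of the RefSeq table used here, a share of 0.288%. Those entries hold no 3′ arm of Mir302a, so the seed of that arm is not compared here. The letters AAGUGCU, read on the miRNA strand, occur at any position in 16 entries (0.921%). In miR-302c-3p they begin at base 1, so that its seed by position is AGUGCUU. The seed of miR-293-3p is GUGCCGC, and that of miR-367-3p is AUUGCAC, which it shares with miR-25, miR-32, miR-92a, miR-92b and miR-363. How far the likeness runs past the seed differs between pairs of arms. The longest run common to miR-302b-3p and miR-302d-3p is 17 bases, against 11 bases between miR-302b-3p and miR-291a-3p. For comparison, miR-17-5p, from the cluster that promotes proliferation in many embryonic tissues, holds the letters AAGUGCU from base 3, and miR-92b-3p has the seed of miR-367-3p.
miR-17-5p: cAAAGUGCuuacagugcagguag
miR-92b-3p: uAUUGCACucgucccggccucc

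The 5′ arms fall into other groups, shown because the counts below add both arms of a hairpin. The 5′ arms of Mir302b, Mir302c and Mir302d share the seed CUUUAAC, while Mir302a, Mir293 and Mir294 each differ from it.
miR-302a-5p: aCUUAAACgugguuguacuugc
miR-302b-5p: aCUUUAACaugggaaugcuuucu
miR-302c-5p: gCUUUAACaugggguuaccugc
miR-302d-5p: aCUUUAACauggaggcacuugcu
miR-293-5p: aCUCAAACugugugacauuuug
miR-294-5p: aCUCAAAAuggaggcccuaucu

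The clusters lie in compact stretches of the mm10 (GRCm38) assembly. The miR-302/miR-367 members span 580 bases on chromosome 3, from 127545228 to 127545807 on the plus strand, in the order Mir302b, Mir302c, Mir302a, Mir302d, Mir367. All 5 lie in an intron of Larp7, a gene for an RNA-binding protein, which is read from the opposite strand. The 4 miR-290 members span 1923 bases on chromosome 7, from 3218919 to 3220841 on the plus strand. GENCODE M21 places them opposite to an untranslated exon of Nlrp12, an innate immunity gene. The tables also hold Mir290a, Mir292 and Mir291b of the same cluster, which are no members and are given below. No member had a read on its opposite strand in either library.

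Levels are counts on the gene's own strand per 1000000 counts assigned to miRNA genes (CPM), with a depth of 2764276 assigned counts for replicate 1 and 3946444 for replicate 2. A read spans a whole mature miRNA, so CPM was not divided by length, and the order of the members was the same per base of hairpin. Reads that match several genomic positions, 32.7% of all reads in replicate 1 and 33.4% in replicate 2, are counted for no gene. Intervals are exact Clopper-Pearson 95% intervals and, like the floor of 3 counts for a gene at 0 (1.09 CPM in replicate 1 and 0.760 CPM in replicate 2), cover counting error only. The hindbrain label was checked against 10 neural and Hox-linked miRNA genes, of which 9 are in the tables and 6 had at least 10 counts in both libraries. Mir10a, which lies beside hindbrain Hox genes, averaged 26113 CPM and the neuronal Mir137 averaged 3303 CPM. The Mir124a genes, known from neurons, had at most 37 counts each. Of the Mir9 genes, known from neural progenitors, Mir9-2 had 7 counts in each library and Mir9-3 averaged 382 CPM. Whether these genes lost reads that match several positions was not tested.

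The miR-302/miR-367 cluster was clearly present in the hindbrain, led by 3 genes of similar level. Mir302a had 1328 CPM in replicate 1 and 1226 CPM in replicate 2, from 3671 and 4839 counts. Mir302d had 1193 CPM in replicate 1 and 1007 CPM in replicate 2. Mir302b had 1028 CPM in replicate 1 and 675 CPM in replicate 2. Mir302a was above the other two in both libraries, and the ranges of Mir302d and Mir302b over the libraries overlapped. Among all 1973 genes by mean CPM, Mir302a was at rank 95, Mir302d at rank 103 and Mir302b at rank 112. Mir302a and Mir302d averaged at least 1000 CPM, a level reached by 105 genes (5.32%).

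Mir302c stood well below its neighbours, and Mir367 had next to no counts. Mir302c had 149 CPM in replicate 1 and 122 CPM in replicate 2, below every value of the 3 leading genes. Mir302d exceeded it 8.00-fold in replicate 1 (interval 7.22 to 8.89) and 8.26-fold in replicate 2 (7.51 to 9.10). Mir302c made up 4.03% of the cluster's counts in replicate 1 and 4.02% in replicate 2, so its place within the cluster was nearly the same in both libraries. Mir367 had 1 count in replicate 1, which is 0.362 CPM (0.00916 to 2.02), and 2 counts in replicate 2, which is 0.507 CPM (0.0614 to 1.83). Both values are below the floor set by 3 counts. The ratio of Mir302a to Mir367 was 3671 in replicate 1 (658 to 145036) and 2420 in replicate 2 (669 to 19984), although both hairpins lie within the same 580 bases. The hairpin of Mir367 has no run longer than 11 bases in common with another mouse miRNA hairpin. Matches elsewhere in the genome were not tested.

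**Figure D1:**
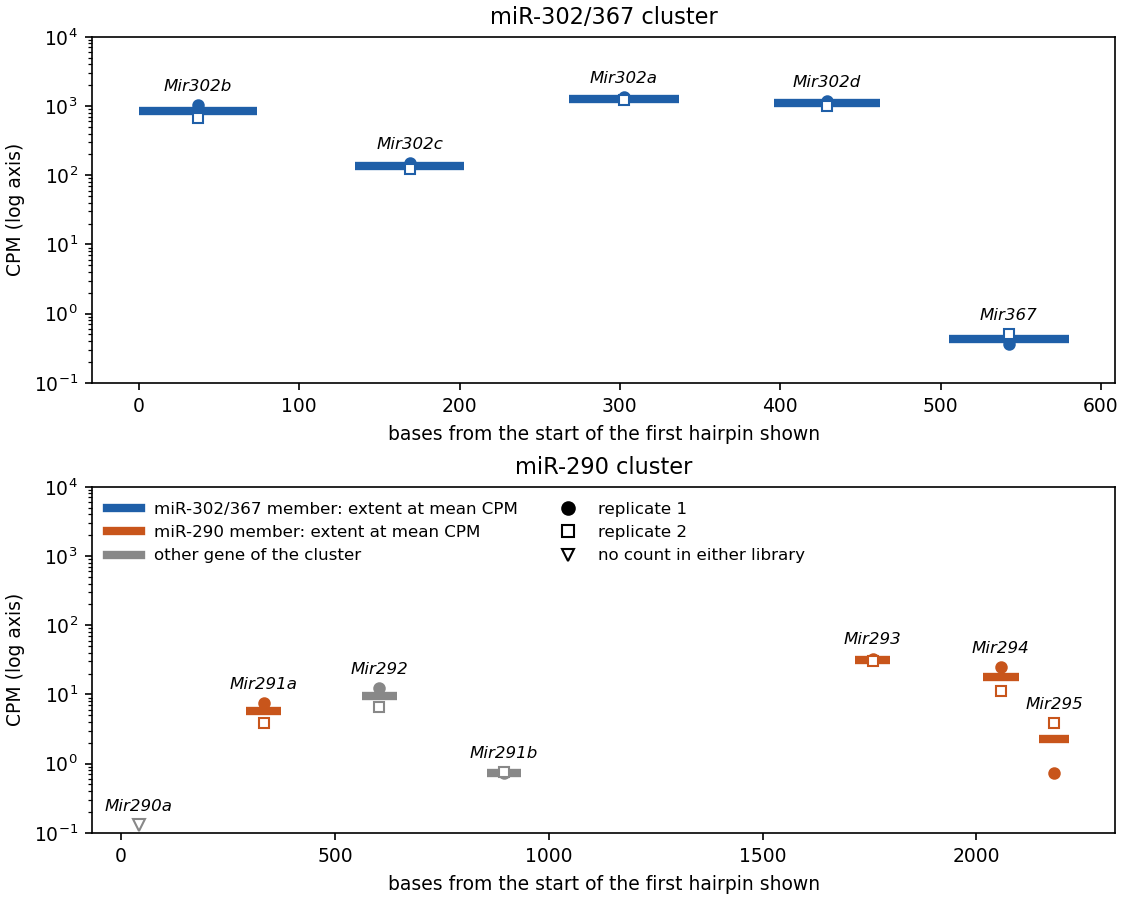
Levels of the hairpins along both clusters; the x axis gives bases from the start of the first hairpin and the y axis CPM on a log axis, with horizontal bars at the mean of the 2 libraries, circles for replicate 1 and squares for replicate 2. Mir302b, Mir302a and Mir302d average between 852 and 1277 CPM and Mir302c, which lies between Mir302b and Mir302a, averages 135 CPM, while Mir367 at the far end averages 0.434 CPM; in the miR-290 cluster Mir293 is the highest at 31.8 CPM and Mir290a, drawn as a triangle, has no count.

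The miR-290 genes were present at low levels. Mir293, the most abundant of them, had 32.9 CPM in replicate 1 and 30.7 CPM in replicate 2, from 91 and 121 counts. Mir294 had 25.0 CPM in replicate 1 and 11.1 CPM in replicate 2, from 69 and 44 counts. Every value of Mir293 was above every value of Mir294, by 1.32-fold in replicate 1 (0.954 to 1.83) and 2.75-fold in replicate 2 (1.93 to 3.98), so that in replicate 1 the difference was within counting error. Mir291a had 7.60 CPM in replicate 1 and 3.80 CPM in replicate 2, from 21 and 15 counts. Mir295 had 0.724 CPM in replicate 1, from 2 counts, and 3.80 CPM in replicate 2, from 15 counts. Mir291a and Mir295 thus had equal counts in replicate 2 and their ranges met.

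The other genes of the cluster in the tables had similar or lower values. Mir292 had 12.3 CPM in replicate 1 and 6.59 CPM in replicate 2, which placed it between Mir294 and Mir291a by mean. Mir291b had 0.724 CPM in replicate 1 and 0.760 CPM in replicate 2. Mir290a had no count in either library. The hairpins of Mir291a and Mir291b have a run of 20 bases in common, so that a read within that run matches both and is counted for neither. Mir293, Mir294 and Mir295 have no run longer than 13 bases in common with any other miRNA hairpin, and matches elsewhere in the genome were not tested.

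Together, 7 of the 9 members had at least 10 counts in both libraries, 4 of 5 from the miR-302/miR-367 cluster and 3 of 4 from the miR-290 cluster, and were called detected. Over all 1973 genes the share detected was 18.8%. Mir367 and Mir295 were not detected by this limit. Mir295 was left out by its 2 counts in replicate 1, while Mir291a, with 15 counts in its lower library, was the detected member nearest to the limit. In the order of mean CPM, the neighbours Mir302d and Mir302b and the neighbours Mir291a and Mir295 overlapped, and the other 6 of 8 neighbouring pairs did not overlap over the libraries. Among those 6 pairs, Mir295 and Mir367 had 2 counts against 1 in replicate 1. Both are below the floor of 3 counts, so their order in replicate 1 was within counting error.

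**Figure D2:**
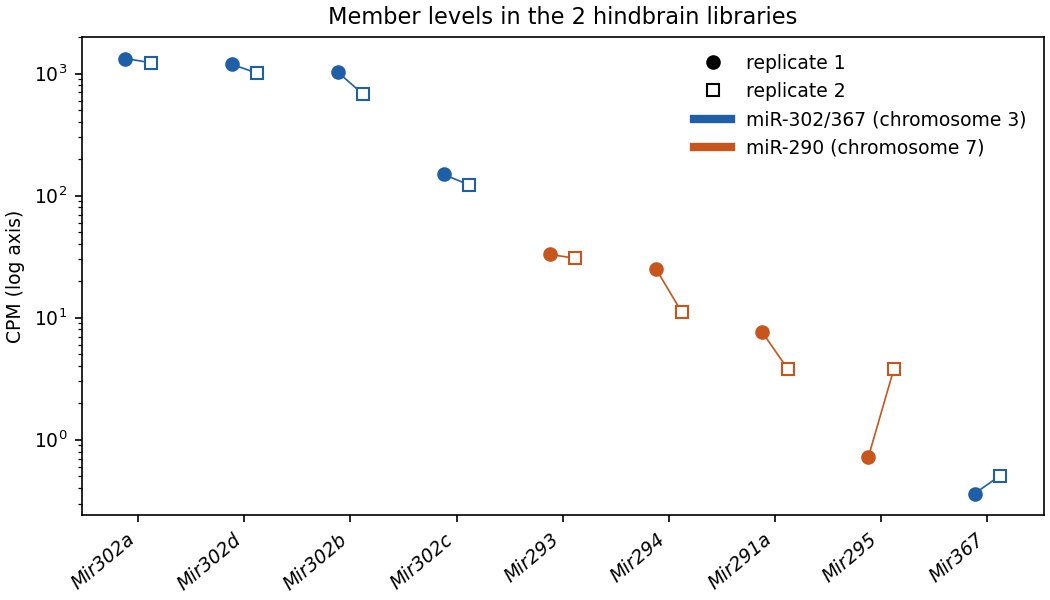
CPM of each member in both libraries, on a log axis, with members ordered by mean; filled circles are replicate 1 and open squares are replicate 2. The detected miR-302 genes lie between 122 and 1328 CPM, all above the miR-290 genes, which lie between 0.724 and 32.9 CPM. Mir367 has the lowest value in both libraries, in replicate 1 by 1 count against 2 counts of Mir295.

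Set against each other within a library, the chromosome 3 cluster was far above the chromosome 7 cluster. Its 5 members held 0.370% of the assigned counts in replicate 1 (interval 0.363% to 0.377%) and 0.303% in replicate 2 (0.298% to 0.309%), an average of 0.336% ± 0.0472 (SD, n = 2). The 4 miR-290 members held 0.00662% in replicate 1 (0.00570% to 0.00765%) and 0.00494% in replicate 2 (0.00427% to 0.00569%), an average of 0.00578% ± 0.00119 (SD, n = 2). In counts these were 10223 against 183 in replicate 1 and 11960 against 195 in replicate 2. The miR-302/miR-367 sum was therefore 55.9-fold the miR-290 sum in replicate 1 (48.3 to 65.0) and 61.3-fold in replicate 2 (53.2 to 71.0). The ratio averaged 58.6 ± 3.87 (SD, n = 2), so the distance between the clusters was much larger than the spread between the libraries.

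The ratio depended on which genes stood for each cluster. With Mir290a, Mir292 and Mir291b added to the miR-290 sum it was 50.04 ± 4.75 (SD, n = 2). Mir302a and Mir302b have a run of 20 bases in common, and Mir291a has such a run in common with Mir291b. Over all detected genes the share with such a run was 23.5%, and among the 7 detected members it was these 3. Without these 3 genes the miR-302/miR-367 share was 0.124% and the ratio was 23.8 ± 1.31 (SD, n = 2). Counts already leave out reads that match several positions, so this is a ratio of fewer genes and not a correction for shared sequence. How many reads the shared runs cost these genes was not tested. With 2 libraries a two-sided exact sign-flip test cannot give a p below 0.5, and none is given. The lowest detected miR-302 gene, Mir302c, also exceeded the highest miR-290 gene, Mir293, by 4.53-fold in replicate 1 (3.60 to 5.75) and 3.98-fold in replicate 2 (3.25 to 4.89). Mir367 went the other way, with Mir293 at 91 counts against 1 count of Mir367 in replicate 1 and 121 against 2 in replicate 2. In a bulk tissue, a few cells with much of a miRNA and many cells with little cannot be told apart.

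**Figure D3:**
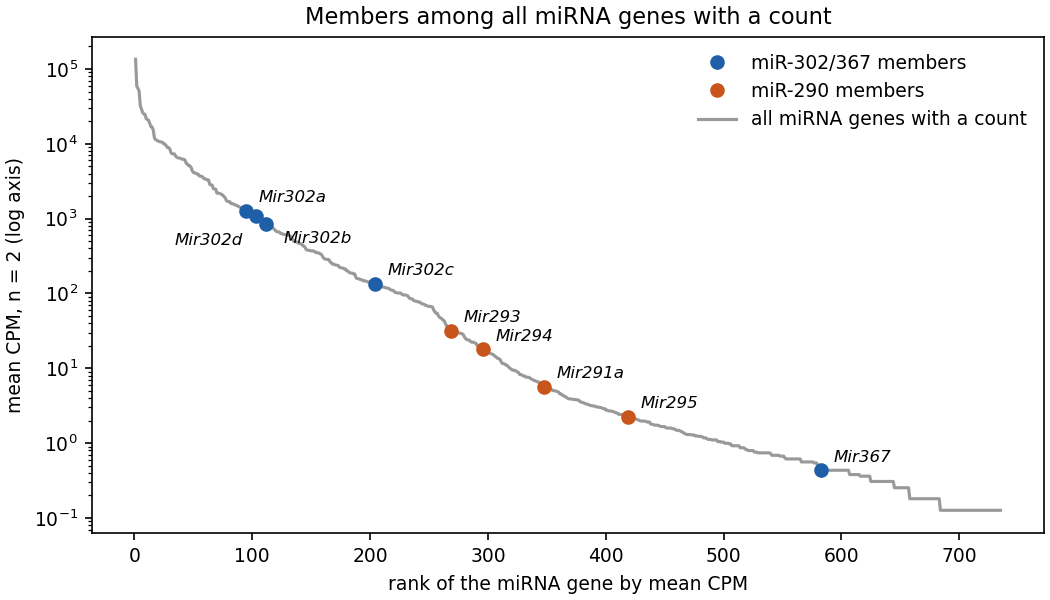
Mean CPM of all miRNA genes with a count (grey line, log axis) against their rank, with the members as points. The 4 detected miR-302 genes lie at ranks 95 to 204, the miR-290 members at ranks 269 to 419 and Mir367 at rank 583.

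Summed over each list, genes that carry related seeds were more abundant than the members. The miR-17 family list (Mir17, Mir20a, Mir20b, Mir93, Mir106a and Mir106b), known for promoting proliferation, held 9.40% of the counts in replicate 1 and 10.6% in replicate 2. Mir17 alone exceeded Mir302a by 36.3-fold in replicate 1 (35.2 to 37.6) and by 43.5-fold in replicate 2 (42.3 to 44.8). For the seed of miR-367-3p, the 6 other genes that encode it summed to 18777 CPM in replicate 1, against 13367 CPM in replicate 2. Mir92b led them with 8921 ± 2587 CPM (SD, n = 2), followed by Mir92-1 with 4883 ± 952 CPM, Mir363 with 1015 ± 220 CPM and Mir25 with 713 ± 44.0 CPM. Mir92-2 had 328 ± 102 CPM and Mir32 had 213 ± 7.94 CPM. Taken singly, Mir25, Mir92-2 and Mir32 averaged below Mir302a, Mir302d and Mir302b, and Mir363 averaged below Mir302a and Mir302d. Mir92-1 and Mir92-2 encode the same miR-92a-3p, so reads that match both are not counted.

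By level alone, with only 2 libraries and so no pattern to match, the genes nearest to the members were as follows. Mir302a lay between Mir434 (1308 mean CPM) and Mir337 (1248 mean CPM), and Mir302d lay between Mir20b (1100.0 mean CPM) and Mir433 (1059 mean CPM). Mir302b lay between Mir341 and Mirlet7b, at 854 and 847 mean CPM, and Mir302c lay between Mir345 and Mir672, at 137 and 134 mean CPM. Among the miR-290 genes, Mir293 lay between Mir1249 and Mir26a-2 (33.7 and 31.6 mean CPM), Mir294 between the erythroid Mir486 and Mir190b (18.5 and 17.7 mean CPM), and Mir291a between Mir741 and Mir450-2 (5.94 and 5.52 mean CPM). Likeness here is the difference of mean CPM and says nothing of a shared source.

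Between the libraries, most members were higher in replicate 1. All 7 members that entered the test, those with a mean of at least 10 counts, had a higher CPM in replicate 1, as had 208 of the 393 genes tested (52.9%). Their median log2 ratio of replicate 1 over replicate 2 was 0.29, beside 0.04 over all genes tested. The sum of the miR-302/miR-367 members was 1.22-fold and that of the miR-290 members 1.34-fold higher in replicate 1. Mir295 and Mir367, which were not tested, had the higher CPM in replicate 2.

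Mir294 was the only member called as differing, under the rule of a 2-fold minimum and an adjusted p below 0.05, a rule that 14 of 393 genes met (3.56%), of which 5 were higher in replicate 1 (1.27%). It was 2.23-fold higher in replicate 1, with an adjusted p of 6.19e-05 by a two-sided exact binomial test with Benjamini-Hochberg adjustment over all genes tested. This test compares the reads of these libraries and not conditions. Mir291a was 1.98-fold higher in replicate 1 (adjusted exact p = 0.0770) and Mir293 1.08-fold (adjusted exact p = 0.707). Mir292 was not called either. The difference of Mir295, 2 against 15 counts, ran against that of Mir294 and was called when genes with a mean of at least 1 count were tested.

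Among the miR-302 genes, Mir302b differed most, by 1.52-fold (log2 ratio 0.61, adjusted exact p = 1.49e-53). Its absolute log2 ratio was larger than that of 86.0% of the genes tested. Mir302c was 1.22-fold, Mir302d 1.18-fold and Mir302a 1.08-fold higher in replicate 1. Without a minimum fold these 4 and Mir294 were past the adjusted exact p, beside 51.7% of the genes tested, which is 26.5% for genes higher in replicate 1. By edgeR's common dispersion, genes varied between the libraries by 17.5% (coefficient of variation) on top of counting noise. Within the cluster, Mir302b held 27.8% of the counts in replicate 1 and 22.3% in replicate 2, while Mir302a held 35.9% and 40.5% and Mir302d held 32.3% and 33.2%.

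**Figure D4:**
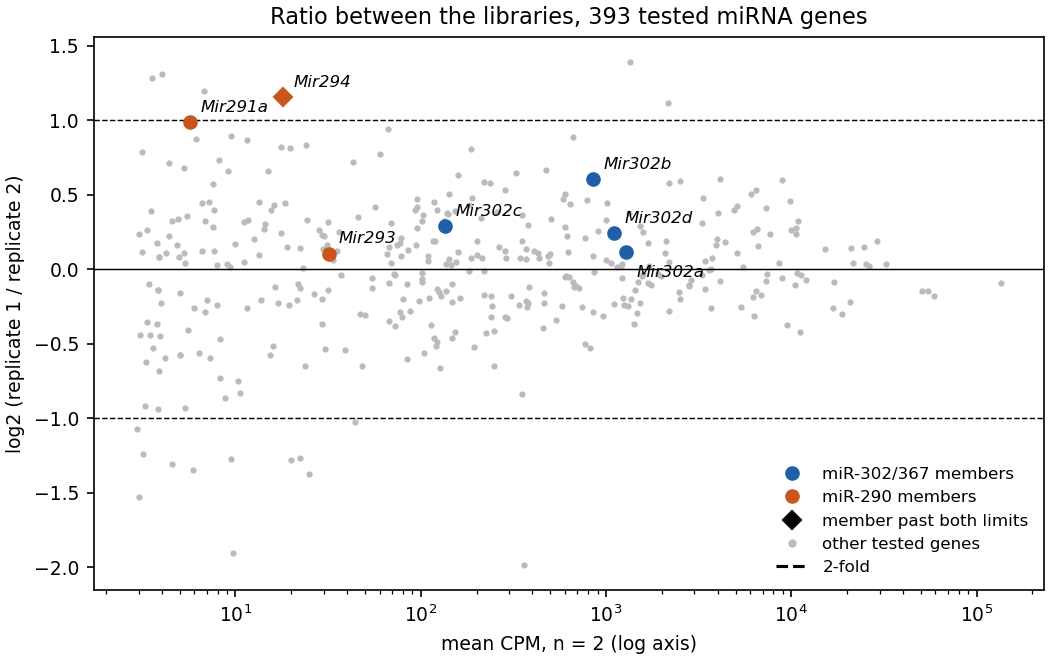
Log2 ratio of replicate 1 over replicate 2 against mean CPM for the 393 genes tested (grey), with the 7 tested members in colour and dashed lines at 2-fold. All 7 lie above 0; Mir294, the diamond, is past 2-fold at a log2 ratio of 1.16, Mir291a lies just under the line at 0.99, and the miR-302 genes lie between 0.12 and 0.61.

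Lists of other cell types also differed between the libraries. Over all 393 genes tested, 52.9% were higher in replicate 1 and 3.56% were called in either direction. All 7 genes of the epithelium list were detected and none was at 0, and the list held 0.966% of the counts in replicate 1 and 0.647% in replicate 2, with 6 of 7 genes higher in replicate 1 and 2 called. The 3 sensory organ genes, all detected, held 2.21% in replicate 1 and 1.70% in replicate 2, and all were higher in replicate 1. The striated muscle list was 3.66-fold higher in replicate 2, with 0.0177% in replicate 1 and 0.0647% in replicate 2. Of its 6 tested genes, 4 were called higher in replicate 2, namely Mir133b, Mir206, Mir208b and Mir499. At 0 in both libraries were 2 of its 9 genes in the tables, Mir1a-1 and Mir133a-1. The mesenchyme list held 1.29% in replicate 1 and 1.08% in replicate 2, but only Mir214 of its 4 genes was higher in replicate 1, and the median log2 ratio of replicate 1 over replicate 2 was -0.51. The endothelial Mir126a held 2.60% in replicate 1 and 2.34% in replicate 2. The erythroid list held 0.0298% in replicate 1 and 0.0355% in replicate 2, although 2 of its 3 genes, Mir486 and Mir144, had the higher CPM in replicate 1. The leukocyte list, with Mir142b at 0, held 0.0555% in replicate 1 and 0.0452% in replicate 2, and all 3 tested genes were higher in replicate 1. The part of these lists in the values of the members was not tested.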

How the data were processed

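The authors deposited whole-number read counts per miRNA gene, not normalized, from alignments to mm10 with the GENCODE M4 annotation, per the labels and a text file deposited beside each table. No aligner, trimming step or version is named in the sources used here. The tables have no header. The column read as the gene's own strand was identified from the layout and the totals, and reads on the opposite strand were 2.38% of both strands in replicate 1 and 2.35% in replicate 2. Rows for reads without a gene stayed outside the totals. Unmapped reads were 15.7% and 16.2% of 5947846 and 8656439 reads in replicates 1 and 2, reads at several positions 32.7% and 33.4%, and reads outside miRNA genes 3.98% and 3.72%.

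Identifiers were matched without version to GENCODE M21, which gave symbols for 1894 of 1973 genes. Mature sequences came from RefSeq (GRCm38.p6), matched by symbol for all 9 members. A hairpin shares sequence when another M21 miRNA hairpin holds the same run of 20 bases.

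The genes were tested between the libraries by an exact binomial test with Benjamini-Hochberg adjustment, with expected shares set by the total assigned counts, and 0.5 added to each count in the ratio. With 1 library a side, edgeR's quasi-likelihood test has no residual degrees of freedom. The labels name biological replicates, and both carry the same donor label, so the spread may be partly technical. Python 3.11.15, SciPy 1.17.1, R 4.3.3, edgeR 4.0.16 and DESeq2 1.42.0 were used. The test was checked on simulated counts that held counting noise only. That check does not cover variation between libraries beyond counting, so the adjusted exact p values describe reads and not biological spread. The members and lists were chosen with earlier results of these data known. Named genes are the members, other miRNA genes within 50 kb, the 8 most abundant other genes with a member's seed, and the nearest genes by level. Mir10a, Mir137 and the genes of the marker lists were named for the tissue checks.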

Additional observations from a re-analysis of the deposited data

How the results depend on the processing

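Of the 34 summary values recomputed under alternatives, 24 stayed within the spread between the libraries or, for counts, within 1.5-fold. Part of this tally was fixed beforehand and is no sign of stability. Leaving out 1 of 2 libraries always stays within that spread, and counting both strands left every member count unchanged. The number of detected members was 9 at a minimum of 1 count, 7 at 5 counts and 5 at 50 counts. Leaving out each library gave a miR-302/miR-367 share of 0.303% to 0.370%, a miR-290 share of 0.00494% to 0.00662% and a cluster ratio of 55.9 to 61.3. Without genes that share a run of 20 bases, the miR-302/miR-367 share was 0.124% and the ratio 23.8, with Mir302a, Mir302b and Mir291a removed. Without Mir99a, the most abundant gene, the miR-302/miR-367 share was 0.389%, since the total is smaller. The cluster ratio was 46.9 as a mean per member, 68.5 per base of hairpin and 50.04 with every gene of the chromosome 7 cluster in the tables. The order of the members was the same per base of hairpin. With both strands counted the order could not change, since no member had a read on its opposite strand. The called member was Mir294 alone with edgeR's TMM scaling, with DESeq2 size factors, with 1 or 0.1 added to each count, with both strands and without Mir99a, at log2 ratios of 1.12 to 1.16 over all alternatives. With a mean of at least 1 count, or any count, 2 members were called, Mir294 and Mir295, since more genes were tested. At 1.5-fold 2 members were called, Mir294 and Mir302b, and with no minimum fold 5, while the calls over all genes were then 39 and 203 in place of 14. Of 70 values of single members under the alternatives, 65 kept their side of the rule and 5 came to meet it. Part of this tally was fixed beforehand too, since changing the count minimum or the minimum fold leaves the ratio itself unchanged. The 5 came to meet the rule only where the minimum fold was lowered or dropped. No paired analysis was possible because there is 1 group. Depth limits Mir295, Mir367 and Mir291b, whose counts were at most 15 in a library.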
